A study of Mus musculus with 12 samples.

Results

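Deoxycholic acid (DCA) was compared with its solvent, dimethyl sulfoxide (DMSO), in organoids of the mouse small intestine, which are epithelial cultures grown from intestinal stem cells. The comparison rests on 6 libraries chosen by their group label, 3 treated with DCA and 3 with DMSO, out of 12 libraries in all. The other 6 libraries were treated with cholic acid (CA, 3 libraries) or chenodeoxycholic acid (CDCA, 3 libraries). All organoids carried the wild-type genotype and were labelled as duodenum. They were cultured for 2 days and then exposed, with the acids labelled at 50 mmol/L. The unit of that concentration is doubtful, because it is far above usual bile acid doses. The exposure is given as 96 hours in one field and as 2 days in another. Polyadenylated RNA was sequenced, and each library holds TPM (a length-scaled share of all transcripts) for 32587 gene rows. Whether replicate libraries stem from different cultures or mice is not labelled. The p-values below therefore reflect the spread between these particular samples and no more, and that spread may be technical.

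DCA is a secondary bile acid, made by gut bacteria that remove a hydroxyl group from cholic acid. In the intestinal epithelium bile acids bind the farnesoid X receptor (FXR, encoded by Nr1h4), a nuclear receptor that pairs with the retinoid X receptor and switches on genes of bile acid binding, export and feedback. The epithelium itself is renewed from stem cells at the base of the crypts, which are maintained by Wnt and Notch signals. Their daughters divide, leave the crypt and become absorptive enterocytes or secretory goblet, Paneth, enteroendocrine and tuft cells.

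Fabp6 and Slc51b, the 2 genes with the highest fold changes, have promoters that share a sequence. They are printed here with that of Slc51a, the partner of Slc51b, because, with pseudogenes set aside, these 3 genes rose most. The sequences run 5′ to 3′ from 250 bases before to 50 bases after the start site and are credited to RefSeq on build GRCm38.p6, which served only for sequence, since the submitters' processing notes name GRCm39. Fabp6 lies on the minus strand at chr11:43601513-43601812, Slc51b on the minus strand at chr9:65422724-65423023 and Slc51a on the minus strand at chr16:32487830-32488129. Capitals mark matches, on either strand, to GGTGAATNACC (N is any base), a variant of the inverted repeat bound by FXR with its partner, and to the single half-site AGGTCA.
Fabp6: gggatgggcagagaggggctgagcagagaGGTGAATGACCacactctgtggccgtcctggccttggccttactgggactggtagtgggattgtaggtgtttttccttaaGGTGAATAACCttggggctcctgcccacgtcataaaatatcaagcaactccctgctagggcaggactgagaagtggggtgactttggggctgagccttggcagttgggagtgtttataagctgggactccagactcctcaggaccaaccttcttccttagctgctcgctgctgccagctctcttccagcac
Slc51b: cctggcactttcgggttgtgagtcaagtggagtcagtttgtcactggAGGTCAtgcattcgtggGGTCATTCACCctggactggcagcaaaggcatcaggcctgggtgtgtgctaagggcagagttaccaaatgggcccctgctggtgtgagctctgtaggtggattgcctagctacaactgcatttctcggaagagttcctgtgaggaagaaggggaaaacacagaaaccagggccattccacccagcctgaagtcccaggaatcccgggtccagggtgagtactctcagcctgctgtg
Slc51a: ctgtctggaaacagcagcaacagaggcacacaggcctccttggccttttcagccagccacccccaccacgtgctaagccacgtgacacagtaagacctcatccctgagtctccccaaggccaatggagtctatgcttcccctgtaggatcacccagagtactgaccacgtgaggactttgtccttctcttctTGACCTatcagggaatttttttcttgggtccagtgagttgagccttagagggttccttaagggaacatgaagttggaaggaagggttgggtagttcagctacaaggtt
The letters GGTGAATNACC were chosen after these promoters had been read, so the matches in Fabp6 (at -221 and -141 from the start site) and Slc51b (at -186) come from that choice. Among all 32851 promoters of the table, 2 (0.00609%) hold these letters, those of Fabp6 and Slc51b. The textbook FXR element, AGGTCA followed by 1 free base and its inverted copy, was in 3 promoters (0.00913%), and the same element without its outermost base at each end was in 13 (0.0396%). Of the 10 tested FXR targets and receptor genes with a promoter in the table, 0 held either of these. The half-site AGGTCA was in 5340 promoters (16.3%) and in 4 of these 10 genes. A match is a description of letters and shows no binding.

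The 11952 rows that reached 1 TPM in 3 or more of the 12 libraries were tested with limma on log2(TPM + 1) and Benjamini-Hochberg adjustment over all of them. Fold changes below are differences in mean log2(TPM + 1), DCA minus DMSO, with the 95% confidence interval given as an interval, on a scale that understates the change of low genes. The deposited rows summed to 932615 to 936841 TPM in the DCA libraries and to 889156 to 920464 in the DMSO libraries. Sequencing depth is unknown, so no counting error can be given. DCA libraries resembled each other more closely (Pearson's r of 0.9922 to 0.9929 across genes) than DMSO libraries did (0.9814 to 0.9878), and pairs of a DCA and a DMSO library gave 0.9478 to 0.9721. Mitochondrially encoded RNA made up 11.2, 11.6 and 12.8% of TPM in DCA and 17, 20.1 and 14.6% in DMSO. The groups do not overlap (exact two-sided permutation p = 0.1, the smallest that 3 against 3 libraries allow). TPM values are shares, so a lower share of these genes raises all others, and the rescaling described next gives the values without them.

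In all, 4545 of the 11952 genes differed between DCA and DMSO at an adjusted p under 0.05 (38%), 2245 higher (18.8%) and 2300 lower (19.2%), and the median of all genes was -0.0213. An unadjusted p under 0.05 was found for 5608 genes (46.9%), and the 3 and 3 libraries did not overlap for 6008 (50.3%). At least 1 log2 unit separated the groups in 363 genes that were higher (3.04%) and 323 that were lower (2.7%). After 13 mitochondrial and 2 rRNA rows were removed and the remaining rows rescaled, a setting added once the data had been seen, there were 1726 higher and 4116 lower genes, so that 29.5% of calls were higher in place of 49.4%, and the median of all genes was -0.151. A call or list median below that is lost or changes sign under that rescaling is named where it occurs. Without DMSO replicate 3 the counts were 2538 higher and 1648 lower, and without DMSO replicate 1 they were 2089 and 2807. The count of lower genes and that of higher genes stayed within 1.5 times the reported ones with each single library left out. The shares of 18.8% and 19.2% are the background against which the members of each list are counted below.

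**Figure D1:**
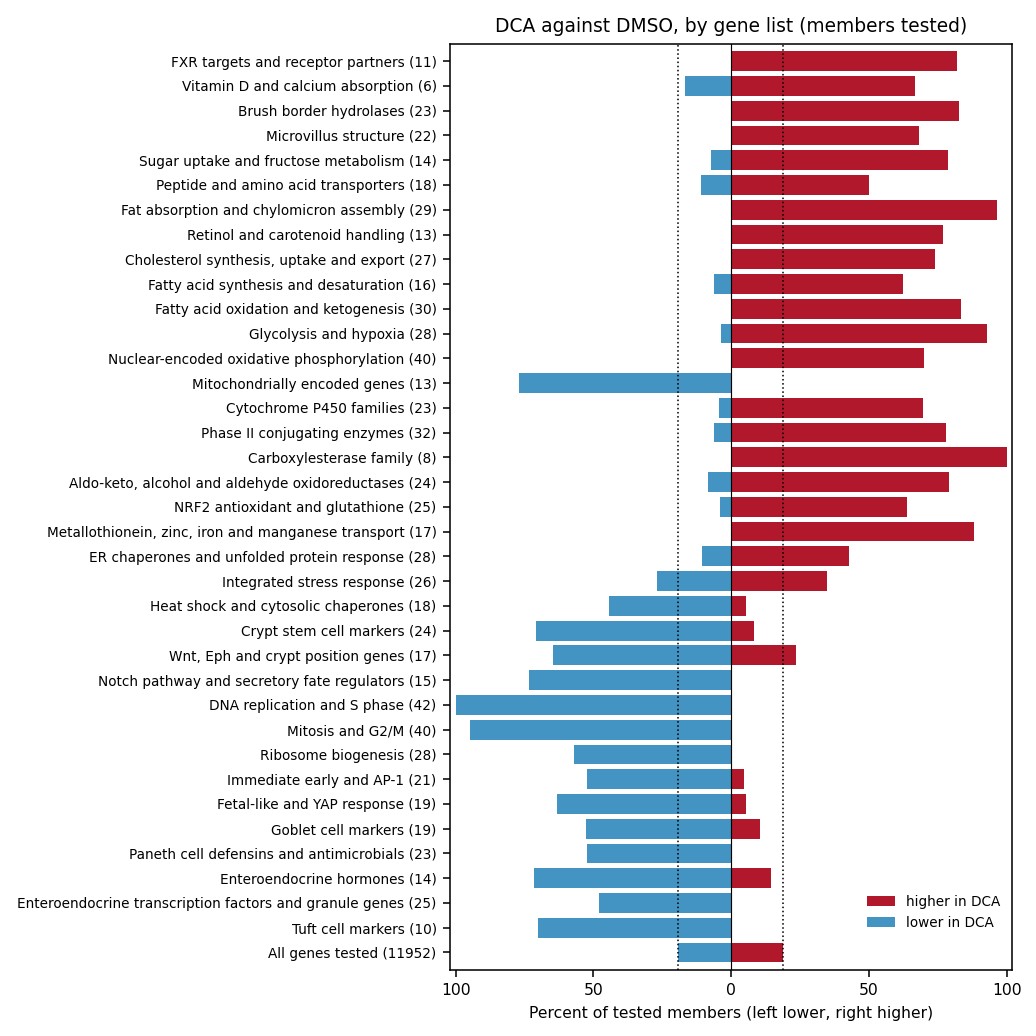
Percent of the tested members of gene lists that were lower (blue, to the left) or higher (red, to the right) in DCA than in DMSO, with the number of tested members in parentheses and, as the last bar and the dotted lines, all 11952 genes tested (19.2% lower, 18.8% higher). Lists of absorption and metabolism lie to the right, and lists of stem cells, cell division and secretory cells to the left.

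Several FXR target genes were among the largest increases. Fabp6, the ileal bile acid binding protein that carries bile acids through the enterocyte, was at 1481, 1653 and 1099.99 TPM in DCA and 1.3, 2.31 and 0.971 TPM in DMSO. The groups were further apart in fold change than for any other tested gene, and its log2 fold change was 9.14, interval 7.91 to 10.38 (limma adjusted p = 1.81e-05). In the DCA libraries this 1 gene held 0.158, 0.177 and 0.118% of TPM. Slc51b and Slc51a, the subunits of the basolateral exporter that passes bile acids to the blood, rose with it. Slc51b was at 149, 155 and 127 TPM in DCA and 4.11, 3.13 and 2.06 TPM in DMSO, and Slc51a was at 57.9, 56.4 and 44 TPM in DCA and 4.64, 2.09 and 1.71 TPM in DMSO. Neither gene had overlapping groups, and the log2 fold changes were 5.17 and 3.88 (limma adjusted p = 1.42e-05 and 0.000155). Fgf15, the hormone by which enterocytes lower bile acid synthesis in the liver, was at 27.1, 24.7 and 29.9 TPM in DCA and 1.88, 1.93 and 1.72 TPM in DMSO, a log2 fold change of 3.31, interval 2.72 to 3.90. Nr0b2, the repressor that FXR induces in feedback, rose from a low level and was at 4.06, 3.83 and 3.56 TPM in DCA and 1.76, 1.41 and 1.22 TPM in DMSO (log2 fold change 0.97, limma adjusted p = 0.00284). Sdc1, a cell surface proteoglycan listed as an FXR target, did not pass the test at -0.13, interval -0.28 to 0.033.

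The list also held the receptors that sense bile acids and related molecules. Nr1i3, the constitutive androstane receptor of drug metabolism, rose from 20.1, 18.9 and 17.4 TPM in DMSO to 65.5, 60.9 and 55.8 TPM in DCA (log2 fold change 1.64). Nr1h4, FXR itself, was at 35.4, 38.5 and 34.5 TPM in DCA and 25.9, 16.2 and 16.9 TPM in DMSO (log2 fold change 0.87, limma adjusted p = 0.00727), with DMSO replicate 1 highest of its group. Nr1i2, the pregnane X receptor, rose by 0.64 with little spread within each group. The vitamin D receptor Vdr, which can also bind secondary bile acids, did not pass, and its groups overlapped, with 90.7, 87.7 and 81.1 TPM in DCA and 68.2, 74.6 and 93.5 TPM in DMSO (log2 fold change 0.14, interval -0.081 to 0.37). Of 14 genes listed as FXR targets and receptors, 11 passed the filter, and 9 of these rose and 0 fell, with a median log2 fold change of 0.97, and 8 rose and 1 fell after the rescaling. The importer Slc10a2 (0.822 TPM at most), the membrane receptor Gpbar1 (0.0751 TPM at most) and the export pump Abcb11 (0.0502 TPM at most) were below the filter.

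**Figure D2:**
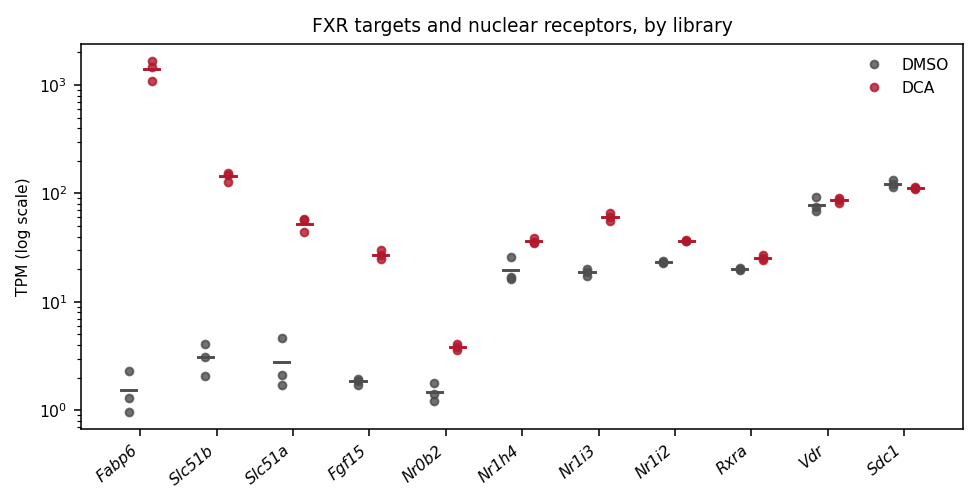
TPM on a log scale of FXR targets and nuclear receptors in each DMSO library (grey) and DCA library (red), with a line at the group mean. Fabp6 is furthest apart, with means of 1.53 TPM in DMSO and 1411 TPM in DCA, while the groups overlap for Vdr.

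Other carriers of bile acids and organic anions rose as well. Abcc2, an apical export pump for conjugates, was at 138, 136 and 123 TPM in DCA and 54.1, 45 and 54.8 TPM in DMSO, and the groups were far apart (log2 fold change 1.35, interval 1.05 to 1.65, limma adjusted p = 4.35e-05). Abcc3, its basolateral counterpart, rose by 0.69, the organic anion uptake carrier Slco2b1 by 1.35 and the apical pump Abcg2 by 0.78. Abcc4, another export pump, went the other way, from 2.71, 3.9 and 6.42 TPM in DMSO to 1.23, 1.5 and 1.07 TPM in DCA (log2 fold change -1.18). Of 12 tested members of this list 7 rose and 1 fell (median 0.51).

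Several tested genes of calcium absorption that respond to vitamin D rose, although their receptor did not pass the test. S100g, the calbindin that shuttles calcium through the enterocyte, was at 699.8, 687 and 657 TPM in DCA and 149, 84.5 and 125 TPM in DMSO, a log2 fold change of 2.54, interval 1.82 to 3.26 (limma adjusted p = 0.000278). The 3 DCA libraries lay close together and far above all 3 DMSO libraries. Cyp24a1, which inactivates the vitamin D hormone, was at 5.83, 5.27 and 6.6 TPM in DCA, while DMSO libraries listed it at 0, 0 and 0.668 TPM (log2 fold change 2.54). The basolateral calcium pump Atp2b1 rose by 0.73, and Cyp3a11, a steroid hydroxylase with close paralogs, by 1.82. Cldn2, a claudin that forms paracellular cation pores, fell (log2 fold change -0.61, interval -0.89 to -0.33). Of 11 listed members 6 passed the filter, and 4 of these rose and 1 fell. The calcium channels Trpv6 (0.104 TPM at most) and Trpv5 (0 TPM in every library) were below the filter.

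Most crypt stem cell markers fell. Slc12a2, a chloride cotransporter high in crypt base cells, was at 28.7, 27.9 and 32.2 TPM in DCA and 101, 118 and 161 TPM in DMSO (log2 fold change -2.04, interval -2.54 to -1.53, limma adjusted p = 9.82e-05). The groups were separated by a wide gap, with DMSO replicate 1 the lowest of its group. Smoc2, a secreted matrix protein of stem cells, was at 46.1, 44.9 and 53.2 TPM in DCA and 117, 152 and 197 TPM in DMSO, and Sox9, a crypt transcription factor, was at 3.86, 4.08 and 4.21 TPM in DCA and 10.7, 14.3 and 19.4 TPM in DMSO. Their log2 fold changes were -1.65 and -1.61 (limma adjusted p = 0.00018 and 0.000147), and in both the DCA libraries lay close together while DMSO varied. The same held for Olfm4, a secreted stem cell glycoprotein with the lowest fold change of all tested genes, at 16.1, 14.2 and 17.7 TPM in DCA and 161, 346 and 446 TPM in DMSO (log2 fold change -4.11). Cdca7 fell by 1.66, Igfbp4 by 1.30, Tnfrsf19 by 1.22 and the stem cell receptor Lgr5 by 1.17. Of 24 tested markers 17 fell and 2 rose, with a median of -1.20. The 2 that rose, Nrn1 (0.37) and Tert (0.45), lost their calls under several alternatives, among them the rescaling without mitochondrial and rRNA rows. Prom1, Bmi1 and Rnf43 did not pass (-0.13, -0.078 and -0.33). In bulk RNA fewer cells of a type and less RNA per cell cannot be told apart, here and for each cell type below.

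Of the Wnt and Eph genes 11 of 17 tested members fell and 4 rose (median -0.51). Axin2 and Ascl2, described next for their tie to Wnt, were counted with the stem cell markers and are not among these 17. Axin2, a feedback inhibitor that Wnt itself induces, was at 5.71, 5.47 and 5.92 TPM in DCA and 18, 31.6 and 47.8 TPM in DMSO. Its groups did not overlap (log2 fold change -2.22, limma adjusted p = 0.00214). Nkd1, also a Wnt-induced inhibitor, was at 0.255, 0.17 and 0.187 TPM in DCA and 1.02, 0.923 and 1.18 TPM in DMSO, under 1 TPM in every DCA library. Ascl2, a transcription factor that Wnt sustains in stem cells, was at 0.648, 1.07 and 0.85 TPM in DCA and 3.39, 8.7 and 9.6 TPM in DMSO (log2 fold change -2.05). Cd44 (-1.5), Tcf7 (-0.92), Sp5 (-0.84) and the crypt-sorting receptors Ephb2 (-0.64) and Ephb3 (-0.75) also fell. Wnt receptors moved both ways, with Fzd7 (-0.45) and Lrp5 (-0.57) lower and Fzd5 (0.43) higher. The ephrin ligand Efnb2, which repels Eph-bearing crypt cells, rose by 0.64. The fall of Ephb3 and the rises of the Wnt-induced inhibitor Notum (0.64) and the receptor Lrp6 (0.25) were lost without DCA replicate 1 or 2 or DMSO replicate 2 or 3, and the fall of Sp5 without DCA replicate 1 or DMSO replicate 3. Both rises were also lost after the rescaling. The BMP genes that pattern the villus side gave 1 call among 12, Smad5 (-0.41), which was lost without DCA replicate 2 or 3 or DMSO replicate 2 or 3, leaving 0 members called. After the rescaling 4 fell, and the median turned from 0.067 to -0.068.

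Notch ligands, targets and secretory fate regulators fell or did not pass. Nrarp, a Notch target that limits the signal, was at 8.49, 9.2 and 8.93 TPM in DCA and 15.6, 15.1 and 15.5 TPM in DMSO (log2 fold change -0.73, interval -0.92 to -0.55, limma adjusted p = 9.51e-05), with little spread within each group. The Notch-modifying glycosyltransferase Lfng fell by 1.39 and the ligands Dll1 and Dll4 by 0.57 and 0.56. Neurog3, which commits cells to the enteroendocrine fate, was at 3.93, 4.2 and 4.86 TPM in DCA and 8.04, 10.7 and 10.4 TPM in DMSO, a log2 fold change of -1.0. The secretory factors Sox4 (-1.37), Foxa3 (-1.0) and Spdef (-0.72) were lower too. Hes1, the best-known Notch target in the gut, did not pass at -0.18, interval -0.35 to 0.0022. Of 15 tested members 11 fell and 0 rose (median -0.56).

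Every tested DNA replication gene was lower: 42 of 42 members fell, with a median of -1.25. The subunits of the MCM helicase that unwinds DNA illustrate it. Mcm2 was at 10.2, 9.87 and 9.83 TPM in DCA and 26.3, 33.7 and 41.8 TPM in DMSO, and Mcm7 was at 23.9, 24.2 and 23.7 TPM in DCA and 57.5, 79.1 and 89.4 TPM in DMSO. The DCA libraries lay close together below every DMSO library in both genes (log2 fold changes -1.65 and -1.59, limma adjusted p = 8.84e-05 and 7.46e-05). Mcm3, Mcm4, Mcm5 and Mcm6 fell by 1.53, 1.59, 1.68 and 1.32. The origin recognition subunit Orc6 (-1.23), the clamp loader Rfc4 (-0.94), the primase subunit Prim2 (-1.41), the ribonucleotide reductase subunit Rrm1 (-1.34) and the chromatin assembly factor Chaf1b (-1.69) moved with them. Summed over the list, replication genes held 0.0725, 0.0732 and 0.0729% of TPM in DCA and 0.138, 0.171 and 0.195% in DMSO, so the DCA libraries agreed closely while the DMSO libraries varied.

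Mitosis genes fell in 38 of 40 cases, with a median of -0.95. Kif23, a kinesin of cell cleavage, was at 25.8, 28.1 and 29.3 TPM in DCA and 53.4, 52.5 and 54.7 TPM in DMSO (log2 fold change -0.93, interval -1.10 to -0.76, limma adjusted p = 1.81e-05). Ube2c, the enzyme that marks cyclins for destruction, was at 92.4, 90.9 and 88.9 TPM in DCA and 167, 189.8 and 201 TPM in DMSO, and the mitotic kinase Plk1 was at 16.4, 15.6 and 17 TPM in DCA and 33.1, 37.4 and 44 TPM in DMSO. Both had a wide gap between the groups (log2 fold changes -1.02 and -1.17). Cdc20 fell by 0.85, Ccnb1 by 1.02 and the proliferation marker Mki67 by 0.80. Cenpf (-0.46) and Pttg1 (-0.32) did not pass.

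Promoters of 4 of these mitosis genes, those with the smallest p among members whose promoter holds the letters, are printed because the list shares a sequence near its start sites. Capitals mark TTTGAA on either strand, the cell cycle homology element known from cell cycle promoters, in RefSeq sequences on build GRCm38.p6. Kif23 is at chr9:61946750-61947049 on the minus strand, Ube2c at chr2:164769679-164769978 on the plus strand, Cdc20 at chr4:118437294-118437593 on the minus strand and Plk1 at chr7:122159185-122159484 on the plus strand.
Kif23: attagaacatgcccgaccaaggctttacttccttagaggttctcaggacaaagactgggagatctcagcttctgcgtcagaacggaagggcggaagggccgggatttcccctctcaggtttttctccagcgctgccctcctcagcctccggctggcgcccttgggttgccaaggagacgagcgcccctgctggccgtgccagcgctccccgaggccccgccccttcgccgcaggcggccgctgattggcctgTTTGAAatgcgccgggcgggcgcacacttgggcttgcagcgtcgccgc
Ube2c: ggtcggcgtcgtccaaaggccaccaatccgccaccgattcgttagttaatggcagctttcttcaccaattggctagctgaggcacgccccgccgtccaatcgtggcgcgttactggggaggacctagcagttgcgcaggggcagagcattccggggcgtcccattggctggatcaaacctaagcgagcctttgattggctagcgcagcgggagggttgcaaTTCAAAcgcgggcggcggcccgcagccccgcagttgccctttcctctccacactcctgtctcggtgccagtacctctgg
Cdc20: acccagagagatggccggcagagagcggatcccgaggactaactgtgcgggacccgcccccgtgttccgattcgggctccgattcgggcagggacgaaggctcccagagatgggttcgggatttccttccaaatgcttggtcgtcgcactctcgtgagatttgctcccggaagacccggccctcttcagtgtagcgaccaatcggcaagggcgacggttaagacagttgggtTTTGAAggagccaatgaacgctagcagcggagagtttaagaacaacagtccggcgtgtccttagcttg
Plk1: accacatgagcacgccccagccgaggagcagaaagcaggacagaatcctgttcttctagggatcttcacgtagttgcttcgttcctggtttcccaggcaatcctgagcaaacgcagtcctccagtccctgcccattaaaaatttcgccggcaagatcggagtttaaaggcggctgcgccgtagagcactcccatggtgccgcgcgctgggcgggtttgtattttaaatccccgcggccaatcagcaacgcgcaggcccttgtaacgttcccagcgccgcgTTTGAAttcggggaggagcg
The letters start at 3 in Kif23, -29 in Ube2c, -18 in Cdc20 and 31 in Plk1, counted from the start site. TTTGAA was in 25 of the 33 tested mitosis genes with a promoter in the table (75.8%), in 5 of 33 replication genes (15.2%), in 1365 of 9465 tested genes (14.4%) and in 5878 of all 32851 promoters (17.9%). Within 50 bases of the start site it was in 22 of 33 mitosis genes (66.7%), 2 of 33 replication genes (6.06%), 363 of 9465 tested genes (3.84%) and 1546 of all 27025 symbols in the table (5.72%). The letters CTTTGAT and CTTTGTT, bound by TCF factors of the Wnt pathway, were in 3.73% and 5.85% of all promoters, and in 1 and 3 of 12 Wnt and Eph genes. Of 15 crypt stem cell markers 1 and 0 held them. They were in 2.94% and 4.96% of genes lower in DCA and in 3.19% and 4.71% of genes tested.

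Around the G1 phase, 4 of 5 listed cyclins fell, and cell cycle inhibitors moved both ways. Ccnd1, a cyclin that drives entry into S phase, was at 12.2, 12.6 and 12.4 TPM in DCA and 23.7, 32.3 and 41 TPM in DMSO (log2 fold change -1.28, limma adjusted p = 0.000182). Ccne1 fell by 1.44, Ccne2 by 1.25, Ccnd2 by 0.50 and the kinase Cdk2 by 0.98, while Ccnd3 did not pass (-0.16). Cdkn2b, an inhibitor of the cyclin D kinases, was at 24.3, 23.4 and 23.8 TPM in DCA and 10.9, 6.44 and 5.32 TPM in DMSO, a log2 fold change of 1.59, interval 1.0 to 2.19. All DCA libraries were above all DMSO libraries, with DMSO replicate 1 nearest. Rb1, the retinoblastoma protein, rose by 0.89, the growth arrest gene Gadd45a by 0.81 and the inhibitor Cdkn1a by 0.59. Cdkn2c, a close relative of Cdkn2b, fell by 0.73, and Cdkn1b did not pass (-0.076). Over the list 7 of 25 members rose and 12 fell. Of 17 tested targets of the p53 pathway 3 rose and 6 fell, with 11 lower after the rescaling. Those that fell included Phlda3 (-0.88), Plk2 (-0.72) and Eda2r (-0.62).

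Genes that build ribosomes fell in 16 of 28 cases, while most genes of the ribosome itself did not pass. Nop58, a core protein of small nucleolar particles, was at 97.4, 83.6 and 91.6 TPM in DCA and 147, 152 and 170.4 TPM in DMSO (log2 fold change -0.78, limma adjusted p = 0.000216). Fibrillarin (Fbl), the methylase of ribosomal RNA, fell by 0.68 and dyskerin (Dkc1) by 0.97. The count of lower members was 9 without DMSO replicate 3 and 26 after the rescaling. Of 54 cytosolic ribosomal protein genes 8 rose and 2 fell, with a median of 0.061. This list turned direction with the scaling, to 1 higher and 20 lower with a median of -0.081 after that rescaling, and the 8 became 2 to 5 without any 1 of DCA replicates 1, 2 and 3 and DMSO replicates 1 and 2. Its summed share of TPM was 13.7, 13.6 and 13.5% of TPM in DCA and 13.5, 13.3 and 13.7% in DMSO (exact two-sided permutation p = 0.5).

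**Figure D3:**
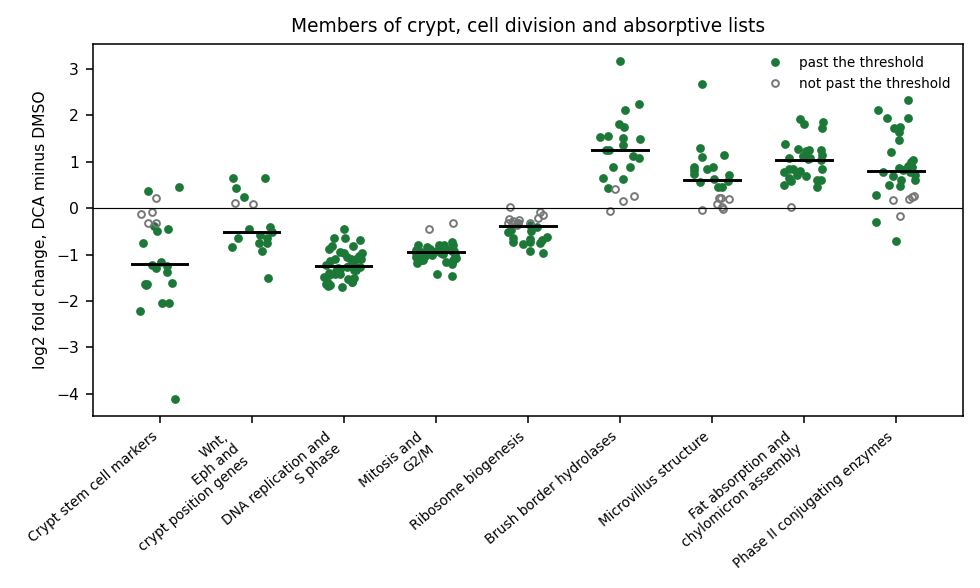
Log2 fold change (DCA minus DMSO) of each tested member of 9 gene lists, filled where the gene passed the test and open where it did not, with a line at the list median. The stem cell, replication and mitosis lists centre at -1.20, -1.25 and -0.95, and the hydrolase and fat absorption lists at 1.25 and 1.05.

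Most genes of the absorptive brush border rose. Naaladl1, a peptidase of the microvillus membrane, was at 43.3, 39.6 and 41 TPM in DCA and 11.9, 9.75 and 13.6 TPM in DMSO (log2 fold change 1.74, interval 1.30 to 2.18, limma adjusted p = 9.72e-05). Ggt1, which cleaves glutathione at the cell surface, was at 173, 208 and 129.9 TPM in DCA and 28.4, 14.8 and 12.9 TPM in DMSO, and Ace, a dipeptidase, was at 21, 23.4 and 16.9 TPM in DCA and 4.78, 2.77 and 3.06 TPM in DMSO. In both the lowest DCA library was over 3 times the highest DMSO library (log2 fold changes 3.17 and 2.25). The disaccharidases lactase (Lct, 2.12), sucrase-isomaltase (Sis, 1.49) and trehalase (Treh, 1.35), the meprin Mep1a (1.25) and the peptidase Mme (1.82) rose too. Anpep, aminopeptidase N, did not pass (-0.067, interval -0.41 to 0.28). Of 23 tested hydrolases 19 rose and 0 fell (median 1.25). Among structural genes of the microvillus 15 of 22 rose and 0 fell (median 0.61), with Pdzk1, a scaffold of apical transporters, at 18.8, 19.5 and 10.8 TPM in DCA and 2.09, 1.21 and 1.69 TPM in DMSO and with the largest fold change, 2.68. The actin bundler Espn rose by 0.82, the tip-link cadherin Cdhr2 by 1.10 and villin (Vil1) by 0.70, whereas ezrin (Ezr) and Eps8 did not pass (-0.038 and 0.088).

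Genes of sugar and amino acid handling rose more often than they fell. Pcx, pyruvate carboxylase, was at 28, 30.5 and 24.4 TPM in DCA and 3.73, 3.02 and 3.54 TPM in DMSO (log2 fold change 2.69, interval 2.24 to 3.14, limma adjusted p = 1.25e-05). The gluconeogenic enzymes Fbp1 and G6pc rose by 1.67 and 1.84, the fructose transporter Slc2a5 by 1.64 and the sodium-glucose cotransporter Slc5a1 by 0.92. Pck2, the mitochondrial carboxykinase, fell (-0.37), and 11 of 14 members rose and 1 fell. Slc6a20a, a proline transporter, was at 89.4, 96.8 and 66.9 TPM in DCA and 13.5, 6.35 and 7.33 TPM in DMSO, a log2 fold change of 3.13. The cystine carrier Slc7a9 rose by 1.58, its partner Slc3a1 by 1.09 and the peptide transporter Slc15a1 by 1.29. Slc6a19, the main neutral amino acid transporter of the villus, did not pass (-0.061), and the growth-linked carriers Slc7a5 and Slc7a6 fell by 0.54 and 0.75. In that list 9 of 18 rose and 2 fell.

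Nearly all fat absorption genes rose, 28 of 29 members being higher and 0 lower (median 1.05). Dgat1, which makes triglyceride, was at 262, 257 and 231 TPM in DCA and 124, 112 and 125 TPM in DMSO (log2 fold change 1.05, interval 0.76 to 1.33, limma adjusted p = 0.000137). Mttp, which loads lipid onto chylomicrons, was at 435, 440.4 and 379 TPM in DCA and 213, 127 and 153 TPM in DMSO, and Npc1l1, the cholesterol importer, was at 147, 147 and 128 TPM in DCA and 74.5, 54.9 and 61.6 TPM in DMSO. Both were higher in each DCA library than in each DMSO library (log2 fold changes 1.37 and 1.14). Mogat2 rose by 1.81, the remodelling enzyme Lpcat3 by 0.85, the fatty acyl ligase Acsl5 by 1.26 and apolipoprotein Apoc3 by 1.92. Pnpla2, a lipase of cellular fat stores, did not pass (0.027). The list held 0.91, 0.946 and 0.729% of TPM in DCA and 0.401, 0.267 and 0.362% in DMSO. Carotenoid and retinol genes rose in 10 of 13 cases and fell in 0 (median 0.82). Bco2, which cleaves carotenoids, was at 54.7, 57.6 and 50.00 TPM in DCA and 11.9, 5.99 and 6.4 TPM in DMSO (log2 fold change 2.65), and the retinol dehydrogenase Rdh7 and the saturase Retsat rose by 1.8 and 1.25.

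Genes of the villus tip and the transcription factors of intestinal identity moved in both directions. Krt20, a keratin of the tip, was at 168, 172 and 148 TPM in DCA and 55.9, 34.6 and 37.9 TPM in DMSO (log2 fold change 1.93, limma adjusted p = 0.000183), but of 16 tip genes 5 rose and 3 fell. Klf4 (0.14) and Ada (1.02) did not pass, and the tip claudin Cldn4 fell by 0.99. Among identity factors the forkhead factors Foxa1 and Foxa2 fell by 1.17 and 1.30, while the lipid-sensing receptor Ppara rose by 1.25, its coactivator Ppargc1a by 0.95 and Gata6 by 0.61. The enterocyte regulator Hnf4a did not pass (0.13, interval -0.12 to 0.37). In that list 10 of 27 rose and 6 fell, and the count of higher members was 6 without DCA replicate 2 and after the rescaling.

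**Figure D4:**
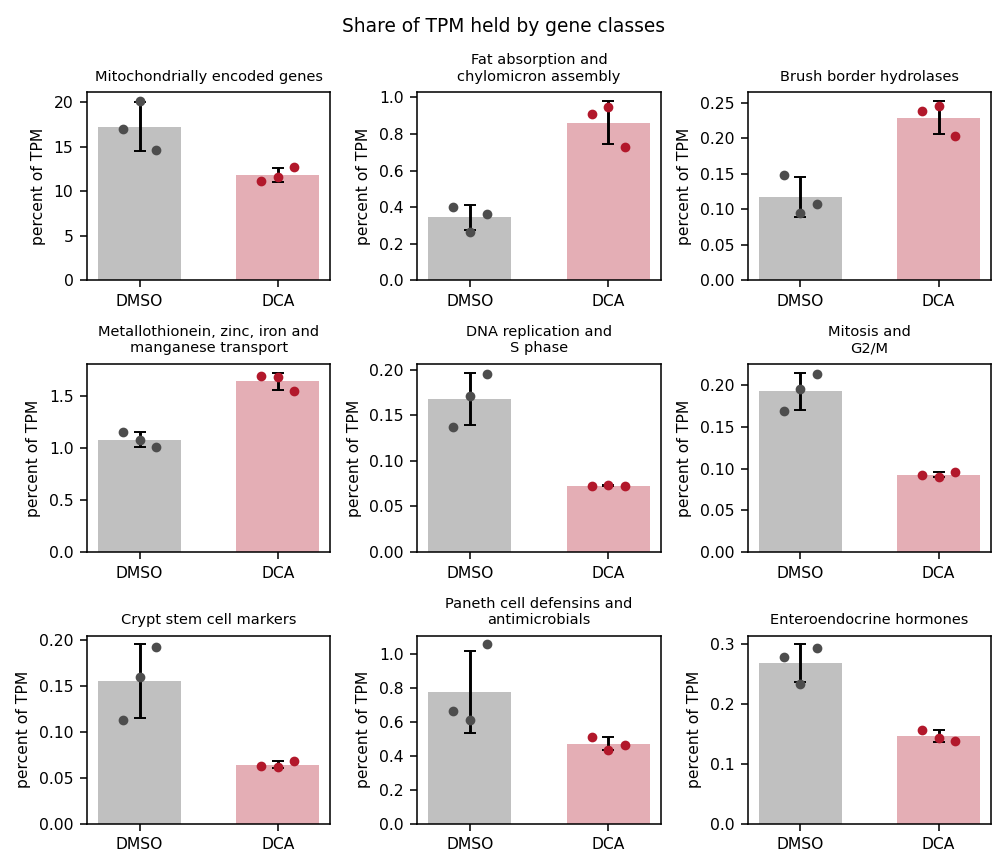
Percent of TPM held by 9 gene classes in the 3 DMSO and 3 DCA libraries, with bars at the mean, error bars of 1 SD and a point for each library. For each class shown the groups do not overlap, and DMSO varies more than DCA in the replication and stem cell panels.

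Lipid and energy metabolism genes were mostly higher. Scd1, the desaturase that makes oleate, was at 441, 460.02 and 395 TPM in DCA and 88.3, 76.4 and 88.8 TPM in DMSO (log2 fold change 2.34, interval 2.07 to 2.61, limma adjusted p = 5.44e-07), and the groups were far apart with little spread. The malic enzyme Me1 rose by 1.71, the acetyl-CoA synthetase Acss2 by 0.84 and the lipase Pnpla3, with a wide spread in both groups, by 2.45. The core synthesis genes Fasn (0.24), Acaca (-0.019) and Acly (0.10) did not pass, nor did the regulator Srebf1 (0.0037), and 10 of 16 members rose and 1 fell. Cholesterol genes rose in 20 of 27 cases and fell in 0 (median 0.53). Insig1, a sterol-responsive retention protein, was at 297, 299 and 259 TPM in DCA and 122, 100.3 and 109 TPM in DMSO (log2 fold change 1.36), with Msmo1 at 0.84, Cyp51 at 0.90 and the acyltransferase Soat2 at 1.03. The sterol regulatory letters TCACNCCAC were in 1 of 19 of these promoters and in 1.24% of all promoters.

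Of 30 genes that oxidise fatty acids 25 rose and 0 fell (median 0.64). Acaa1b, a peroxisomal thiolase, was at 65.9, 73.9 and 53.1 TPM in DCA and 11.4, 7.2 and 14.4 TPM in DMSO (log2 fold change 2.48, limma adjusted p = 0.00011), and Ehhadh rose by 0.97. The gate enzyme of mitochondrial uptake, Cpt1a, did not pass (0.25, interval -0.013 to 0.51). Glycolysis and hypoxia genes rose in 26 of 28 cases. Car9, a carbonic anhydrase induced by low oxygen, was at 420.1, 409.6 and 389.7 TPM in DCA and 169.7, 171 and 175 TPM in DMSO, with little spread in each group and a log2 fold change of 1.23, interval 1.06 to 1.41. Ankrd37 rose by 1.51, Gpi1 by 0.92 and the lactate exporter Slc16a3 by 0.77. The 1 member that was lower, Hk2 (-0.40), lost its call under 7 of 13 alternatives. Nuclear genes of oxidative phosphorylation rose by small amounts in 28 of 40 cases (median 0.25), with Sdhb at 0.58 and Uqcrq at 0.58, and 16 rose after the rescaling. Mitochondrially encoded genes went the other way, 10 of 13 lower, ATP6 by 0.84 and ND6 by 1.35. That count was 5 with median-ratio scaling and 6 without any 1 of DCA replicate 1, DCA replicate 2 and DMSO replicate 2.

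Most tested enzymes that modify drugs, bile acids and lipids rose. Among cytochrome P450 genes 16 of 23 rose and 1 fell (median 0.92). Cyp3a25, a steroid hydroxylase, was at 140.3, 143 and 104 TPM in DCA and 31.8, 13.8 and 15.8 TPM in DMSO (log2 fold change 2.68, interval 2.04 to 3.31, limma adjusted p = 8.9e-05), and Por, which supplies electrons to these enzymes, was at 230.2, 239 and 196 TPM in DCA and 94.8, 86.4 and 95.3 TPM in DMSO. In both the groups were separate, and Por rose by 1.26. Cyp2s1 rose by 1.07 and Cyp4f40 by 1.78, while Cyp2e1, an ethanol-inducible member, fell from 9.89, 5.99 and 9.15 TPM in DMSO to 2.4, 2.22 and 3.62 TPM in DCA (-1.31). Of 32 phase II enzymes 25 rose and 2 fell (median 0.80). Gstm3, a glutathione transferase, was at 2009, 2014 and 1772 TPM in DCA and 504, 331 and 334 TPM in DMSO, a log2 fold change of 2.33, and Gstm1, Gstm2 and Gstm4 rose by 1.73, 1.71 and 1.94. The sulfotransferases Sult1d1 and Sult1b1 rose by 2.12 and 1.95, the glucuronosyltransferase Ugt2b5 by 1.64 and the sulfate donor enzyme Papss2 by 1.47. The falls of Gstm5 (-0.71) and Ugt1a6a (-0.30) were lost without DCA replicate 1 or 3 or DMSO replicate 3, among others. Close paralogs in these families can share reads, so a value of a single member is uncertain.

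Of 17 listed carboxylesterases, which hydrolyse esters in drugs and lipids, 8 passed the filter, and all 8 rose (median 1.01). With median-ratio scaling 7 rose. After the rescaling 10 passed the filter, and 8 of these rose and 1 fell. Ces1f was at 132, 138 and 98.3 TPM in DCA and 23, 8.76 and 7.42 TPM in DMSO (log2 fold change 3.29, interval 2.24 to 4.33, limma adjusted p = 0.000517), with DMSO replicate 1 highest of its group, and Ces1d rose by 2.13. Among aldo-keto reductases, alcohol and aldehyde dehydrogenases 19 of 24 rose and 2 fell. Akr1b7, an aldose reductase family member, was at 37.1, 40.3 and 28.8 TPM in DCA and 2.63, 2.01 and 1.55 TPM in DMSO (log2 fold change 3.57), and Cbr3, a carbonyl reductase, was at 89.5, 85.2 and 84.2 TPM in DCA and 28.8, 25.2 and 23.5 TPM in DMSO (log2 fold change 1.71). Adh6a rose by 2.58, Adh1 by 2.15 and Aldh1a1 by 1.94. Akr1d1, the steroid reductase of bile acid synthesis, was at 0.441, 0.0235 and 0.457 TPM in DCA and 2.46, 2.05 and 3.66 TPM in DMSO, under 1 TPM in every DCA library. Akr1b3 fell by 0.44.

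Iron, zinc and manganese handling genes rose in 15 of 17 cases and fell in 0 (median 0.69). Slc30a10, a manganese exporter, was at 48.1, 46.5 and 41.8 TPM in DCA and 10.04, 5.37 and 6.8 TPM in DMSO (log2 fold change 2.50, interval 2.05 to 2.96, limma adjusted p = 1.81e-05). Slc11a2, the apical iron importer, was at 1022, 1079 and 870.2 TPM in DCA and 380.3, 194 and 229.5 TPM in DMSO, and Slc40a1, the basolateral iron exporter ferroportin, was at 60.3, 67 and 56.9 TPM in DCA and 28.5, 16.3 and 14.2 TPM in DMSO. All DCA libraries lay above all DMSO libraries in both (log2 fold changes 1.94 and 1.66). The ferritin heavy chain Fth1 rose by 0.50, metallothionein Mt2 by 0.67, the zinc exporter Slc30a1 by 1.17 and Epas1, the oxygen-sensing regulator of iron uptake, by 0.87. The iron reductase Cybrd1 did not pass (0.27).

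Stress pathways gave mixed counts. Targets of NRF2, the antioxidant regulator, rose in 16 of 25 cases and fell in 1 (median 0.35), with Osgin1 at 17.4, 18.1 and 16.8 TPM in DCA and 6.56, 5.46 and 7.67 TPM in DMSO (log2 fold change 1.29), Srxn1 at 0.89, Gclm at 0.81 and Nqo1 at 0.65. Hmox1, a classic target, did not pass (0.35, interval -0.0069 to 0.70), and the fall of Gpx2 (-0.78) was lost under 7 of 13 alternatives. In the integrated stress response 9 of 26 rose and 7 fell, and 4 rose and 9 fell after the rescaling, with a median that turned from 0.067 to -0.045. Ddit3, the factor CHOP, was at 62.7, 64.2 and 50.4 TPM in DCA and 28.3, 25.9 and 26.2 TPM in DMSO (log2 fold change 1.11, limma adjusted p = 1.81e-05), Niban1 rose by 1.79 and Trib3 by 0.76, whereas Asns (0.04) and Chac1 (0.25) did not pass and Gdf15 fell by 0.60. Chaperones of the endoplasmic reticulum rose in 12 of 28 cases and fell in 3, with P4hb at 0.95, Xbp1 at 0.50 and Hspa5 at 0.47, and 8 rose and 6 fell after the rescaling. Cytosolic heat shock genes fell in 8 of 18 cases and rose in 1, with Hsp90aa1 at 137, 138 and 134 TPM in DCA and 230.3, 230.1 and 278 TPM in DMSO (log2 fold change -0.84), and 14 fell after the rescaling. Apoptosis genes gave 8 higher and 3 lower of 25, a count of higher members that was 5, 4 and 5 without DCA replicate 1, DCA replicate 2 and DMSO replicate 2 and 5 after the rescaling, where the median turned from 0.094 to -0.045. Birc3 (0.82) and Bcl2l15 (1.16) rose and the survival gene Bcl2 fell (-0.73), while Bax (-0.35), Bbc3 (-0.55) and Pmaip1 (0.16) did not pass.

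More than 10 genes fell in each of the lists of growth factor response and of the fetal-like, regenerating epithelium. Jun, a subunit of the AP-1 factor, was at 10.1, 9.16 and 9.38 TPM in DCA and 17.4, 19.1 and 27.8 TPM in DMSO (log2 fold change -1.06, interval -1.39 to -0.73, limma adjusted p = 0.000277), and Fos fell by 0.89. The ERK-dependent factor Etv4 fell by 1.52 and Spry2 by 0.51, while the ERK phosphatase Dusp6 (-0.0069) and the ligand Ereg (-0.03) did not pass. Of 21 members 11 fell and 1, Junb (0.30), rose. Ly6a, the fetal marker also called Sca1, was at 12, 13.5 and 14.1 TPM in DCA and 28.7, 43.8 and 58.3 TPM in DMSO (log2 fold change -1.60). Anxa1 fell by 1.79, Clu by 1.64 and the YAP target Ccn1 by 1.19. Anxa2 rose (0.41), and Yap1 did not pass (-0.22). Of 19 members of this list 12 fell and 1 rose (median -0.69). Tead2, a partner of YAP that is not in this list, fell by 1.99. Genes outside the lists that fell far included Clca3b, at 14, 13.8 and 15.8 TPM in DCA and 74.2, 156 and 177 TPM in DMSO, the membrane protein Ifitm3, at 10.4, 9.3 and 9.31 TPM in DCA and 46.5, 88.5 and 136 TPM in DMSO, and Rgcc, at 5.96, 8.29 and 7.51 TPM in DCA and 30.4, 44 and 52.5 TPM in DMSO. In each of them DMSO replicate 1 was the lowest of its group and still above the highest DCA library (log2 fold changes -3.04, -2.97 and -2.37).

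Secretory cell genes were lower or did not pass, with a few exceptions. Among goblet cell genes 10 of 19 fell and 2 rose (median -0.36). Fcgbp, a mucus protein, was at 317, 347 and 322 TPM in DCA and 512, 464 and 513 TPM in DMSO (log2 fold change -0.59, interval -0.80 to -0.39, limma adjusted p = 0.000477), and Clca1 and Klk1 fell by 1.05 and 1.05. The trefoil peptide Tff3 (-0.27), Zg16 (-0.37) and the gel-forming mucin Muc2 (-0.34, interval -0.63 to -0.057) did not pass. Muc3, a membrane mucin that enterocytes also carry, rose from 39.7, 23.4 and 21 TPM to 136, 151 and 127 TPM (2.31), and the rise of Muc13 (0.38) was lost under 5 of 13 alternatives, the rescaling among them. Paneth cell genes fell in 12 of 23 cases and rose in 0 (median -0.52). Lyz1, lysozyme, was at 178, 172 and 164 TPM in DCA and 337, 282 and 528 TPM in DMSO, and Mmp7, which activates defensins, was at 19.3, 20.3 and 24.6 TPM in DCA and 51, 45.4 and 97.6 TPM in DMSO. The groups were separate, and DMSO replicate 3 was the highest library in both (log2 fold changes -1.10 and -1.48). Most defensins did not pass, for example Defa30 (-0.20) and Defa22 (-0.039), and as near-identical copies they can share reads. Tuft cell genes fell in 7 of 10 cases and rose in 0, with the regulator Pou2f3 at 0.645, 1.1 and 1.06 TPM in DCA and 1.65, 3.12 and 2.91 TPM in DMSO (-0.86).

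Enteroendocrine hormones fell in 10 of 14 cases and rose in 2 (median -0.81). Gcg, proglucagon, was at 144, 146 and 139 TPM in DCA and 343, 276 and 317 TPM in DMSO (log2 fold change -1.12, interval -1.35 to -0.89, limma adjusted p = 3.12e-05), Cck was at 573, 507 and 508 TPM in DCA and 1167, 924 and 1282 TPM in DMSO and Gip was at 203, 169 and 171 TPM in DCA and 369, 312 and 428 TPM in DMSO. No library of one group reached the other (log2 fold changes -1.07 and -1.02). Gast, gastrin, was at 4.58, 4.23 and 7.49 TPM in DMSO and at 0, 0.569 and 0.288 TPM in DCA, a difference of -2.31 on this scale. Somatostatin (Sst) fell by 0.63 and Tac1 by 0.92. Ghrelin (Ghrl) rose by 0.33, and secretin (Sct) and the serotonin enzyme Tph1 did not pass (-0.066 and -0.22). The rise of Pyy (0.65) was lost without DCA replicate 1 or 3 or DMSO replicate 2 or 3. Of 25 transcription factor and granule genes 12 fell and 0 rose, among them Insm1 (-0.72) and the prohormone convertase Pcsk1 (-0.70). The general granule marker Chga did not pass at 134, 129 and 121 TPM in DCA and 128, 126 and 140.2 TPM in DMSO (-0.036, interval -0.23 to 0.16), and its groups overlapped.

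Defence genes of the epithelium were more often higher than lower. Il18, a cytokine stored in enterocytes, was at 53.8, 54.1 and 47.3 TPM in DCA and 16.4, 6.45 and 7.23 TPM in DMSO (log2 fold change 2.36, interval 1.61 to 3.12, limma adjusted p = 0.000407). Pigr, which carries antibodies into the lumen, was at 1195, 1165 and 1052 TPM in DCA and 559, 469 and 542 TPM in DMSO, and the chemokine Ccl25 was at 672, 659 and 597 TPM in DCA and 349, 230.2 and 249.9 TPM in DMSO. Both were above DMSO in each DCA library (log2 fold changes 1.12 and 1.24). Nlrp6 rose by 0.97 and the chemokine Cxcl16 fell by 0.59, and in all 8 of 17 rose and 3 fell. Reg4, a lectin of secretory cells, fell by 1.36 and Lgals4, a galectin, rose by 0.59, while Reg3b (0.0061) and Reg3g (0.055) did not pass. Most interferon response genes did not pass: of 25 members 6 rose and 0 fell, and these 6 were antigen presentation genes, such as H2-K1 (0.47), H2-Ab1 (0.78) and H2-Q10 (1.29), whose close paralogs can share reads. Isg15 (0.15) and Ifit1 (0.20) did not pass. Ifitm3, an interferon-induced gene by name, was not in this list and fell (-2.97).

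Ion transport genes moved in both directions. Slc26a3, the apical chloride-bicarbonate exchanger, was at 73.4, 70.5 and 64.3 TPM in DCA and 25.8, 15.3 and 19.4 TPM in DMSO (log2 fold change 1.76, interval 1.30 to 2.22, limma adjusted p = 0.000116). Slc26a6 rose by 1.39 and the sodium-proton exchanger Slc9a2 by 0.62. On the secretory side the potassium channel Kcnn4 was at 3.81, 2.65 and 4.95 TPM in DCA and 11.8, 18.1 and 18.2 TPM in DMSO (-1.83), its companion Kcne3 fell by 1.33, the chloride channel Ano1 by 1.18 and the water channel Aqp1 by 1.07. Over the list 12 of 24 rose and 8 fell. Junction genes gave 3 higher and 7 lower of 25, with 11 lower and a median turned from 0.020 to -0.14 after the rescaling. The core proteins Tjp1 (0.13), Ocln (-0.13) and Cdh1 (0.02) did not pass. Of 14 keratin and cytoskeleton genes 9 fell and 2 rose. Krt18, a keratin of simple epithelium, was at 284, 287 and 298 TPM in DCA and 485, 531 and 631 TPM in DMSO (-0.91), the neuronal-type tubulin Tubb2b fell by 2.70 with DMSO replicate 3 far above the others, and the actin crosslinker Flna fell by 1.91.

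Arginine and polyamine genes moved both ways. Arg2, the mitochondrial arginase, was at 159.5, 162 and 123 TPM in DCA and 38.4, 17.4 and 16.5 TPM in DMSO (log2 fold change 2.66, interval 1.84 to 3.49, limma adjusted p = 0.000418). The enzymes that make citrulline in enterocytes rose, Cps1 by 0.60, Otc by 0.61, Oat by 0.88 and Aldh18a1 by 0.66. Polyamine synthesis fell at Amd1 (-0.72) and Srm (-0.55), and Odc1, its first enzyme, did not pass (-0.048). In all 9 of 19 rose and 4 fell, and the median turned from 0.10 to -0.038 after the rescaling. Cbs, which uses homocysteine and was named for the size of its change alone, was at 0.337, 0.279 and 0.405 TPM in DCA and 4.69, 7.32 and 4.31 TPM in DMSO (-2.24).

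The labelled tissue and cell type were checked against markers. Gata4, a factor of the proximal intestine, was at 105, 104 and 98.9 TPM in DCA and 76.8, 78.3 and 99.8 TPM in DMSO. It passed the test although its groups overlapped (log2 fold change 0.28, limma adjusted p = 0.0453), and this call was lost after the rescaling. Pdx1, a duodenal factor, was at 8.9, 8.16 and 9.31 TPM in DCA and 9.99, 10.6 and 11.2 TPM in DMSO and did not pass (-0.25). Of 11 tested region markers 7 rose and 0 fell, and 6 rose and 1 fell after the rescaling. Fabp6 and Slc51b, which mark the ileum in tissue, were low in DMSO (values above). Markers of other cells had low sums. The 12 mesenchymal markers summed to 5.35 to 6.62 TPM in DCA and 6.48 to 7.67 TPM in DMSO, with Lum and Dcn at 0 in all 6 libraries. The 12 immune markers summed to 4.50 to 5.58 and 3.33 to 5.52 TPM, with Itgax and Nkg7 at 0, and the 12 endothelial, glial and neuronal markers to 4.61 to 5.92 and 5.22 to 7.24 TPM, with Cdh5 and Kdr at 0. Of these 36 markers 6 passed the filter and 3 were called. The mesenchymal gene Vim was at 3.77, 3.44 and 1.93 TPM in DCA and 4.84, 4.9 and 6.01 TPM in DMSO and fell by 0.65. The immune gene Itgam was at 1.17, 1.43 and 1.17 TPM in DCA and 0.696, 0.416 and 0.506 TPM in DMSO, above 1 TPM in every DCA library and below it in every DMSO library. The glial gene S100b was at 0.328, 0.172 and 0.348 TPM in DCA and 2.09, 0.827 and 1.41 TPM in DMSO, lower in each DCA library than in any DMSO library. The part of these markers in the results was not tested.

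DCA was also set against the other acids at the same labelled dose and time, in direct contrasts of the same model that share the DCA libraries. These are 2 pairs of acids, and limma p-values were adjusted over all 11952 genes in each. DCA lacks a hydroxyl group that CA carries, and DCA and CDCA carry the same number of hydroxyl groups with a difference in the position of one hydroxyl. Against CA 1761 genes differed (14.7%), 692 higher in DCA (5.79%) and 1069 lower (8.94%), and against CDCA 3322 differed (27.8%), 1532 higher (12.8%) and 1790 lower (15%). Leaving out any 1 of the 6 libraries took the count against CA to 572 to 1107, while it was 3401 in a fit of the 6 libraries compared and 2725 after the rescaling. The count against CDCA was 2192 and 2102 without DCA replicates 1 and 2, and 2026 and 2022 without CDCA replicates 1 and 2.

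Against CA, Fgf15 was higher in DCA by 1.43 (interval 0.84 to 2.02, adjusted p = 0.00701), S100g by 2.02 (interval 1.30 to 2.74, adjusted p = 0.00535) and Cyp3a25 by 1.89 (interval 1.25 to 2.52, adjusted p = 0.00408). Cyp24a1 was listed at 0 in the 3 CA libraries and averaged 5.90 TPM in DCA. Fabp6 averaged 1411 TPM in DCA and 239.9 TPM in CA, a difference of 2.61 (interval 1.38 to 3.85, adjusted p = 0.0165) that lost its call without DCA replicate 1, DCA replicate 2 or CA replicate 2. Slc51a did not pass (1.02, interval 0.039 to 2.01, adjusted p = 0.148), and neither did Reg1 (0.033, interval -0.92 to 0.99, adjusted p = 0.969). Lower in DCA were Gast, with a difference of -2.73 (interval -3.30 to -2.16, adjusted p = 0.000233), Ube2c, with -0.79 (interval -0.99 to -0.59, adjusted p = 0.00104), and Mcm2, with -1.13 (interval -1.54 to -0.71, adjusted p = 0.00489). Of 42 replication genes 39 were lower in DCA than in CA, and of 40 mitosis genes 35.

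Against CDCA, brush border, stem cell and cell division genes differed. Of 42 replication genes 41 were lower in DCA than in CDCA, and of 40 mitosis genes 38. Ggt1 differed by 2.64 (interval 1.84 to 3.45, adjusted p = 0.00108), Arg2 by 2.38 (interval 1.55 to 3.20, adjusted p = 0.00183) and Olfm4 by -3.36 (interval -4.52 to -2.21, adjusted p = 0.00206). Axin2 averaged 5.70 TPM in DCA and 29.6 TPM in CDCA (-2.03, interval -2.96 to -1.10, adjusted p = 0.00558). The CDCA libraries varied, and replicate 3 lay nearest to DCA for both genes. Across CDCA replicates 1, 2 and 3, Olfm4 was at 274, 245 and 77.5 TPM and Axin2 at 42.6, 33.4 and 12.6 TPM. Reg1, a secreted lectin, was higher in DCA than in CDCA by 2.49 (interval 1.54 to 3.45, adjusted p = 0.00284), and against DMSO it did not pass (log2 fold change -0.17, interval -1.12 to 0.78, limma adjusted p = 0.785). Against CDCA Cyp24a1 did not pass, with a difference of 0.068 (interval -0.33 to 0.47, adjusted p = 0.81). Fgf15 did not pass either, with 0.48 (interval -0.11 to 1.07, adjusted p = 0.209), and both intervals still allow differences. Of 11 tested FXR targets and receptors 9 were higher in DCA than in CDCA, and 5 were higher than in CA. Slc51b was higher than in CDCA by 1.55 (limma adjusted p = 0.00818) and S100g by 1.84 (limma adjusted p = 0.00297). Fabp6, higher by 2.26, lost its call without DCA replicate 2 or CDCA replicate 2. Slc51a, higher by 1.52, lost its call without any 1 DCA replicate or CDCA replicate 1 or 2. Of 29 fat absorption genes 28 were higher in DCA than in CDCA and 10 were higher in DCA than in CA. Of 24 stem cell markers 18 and 10 were lower.

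**Figure D5:**
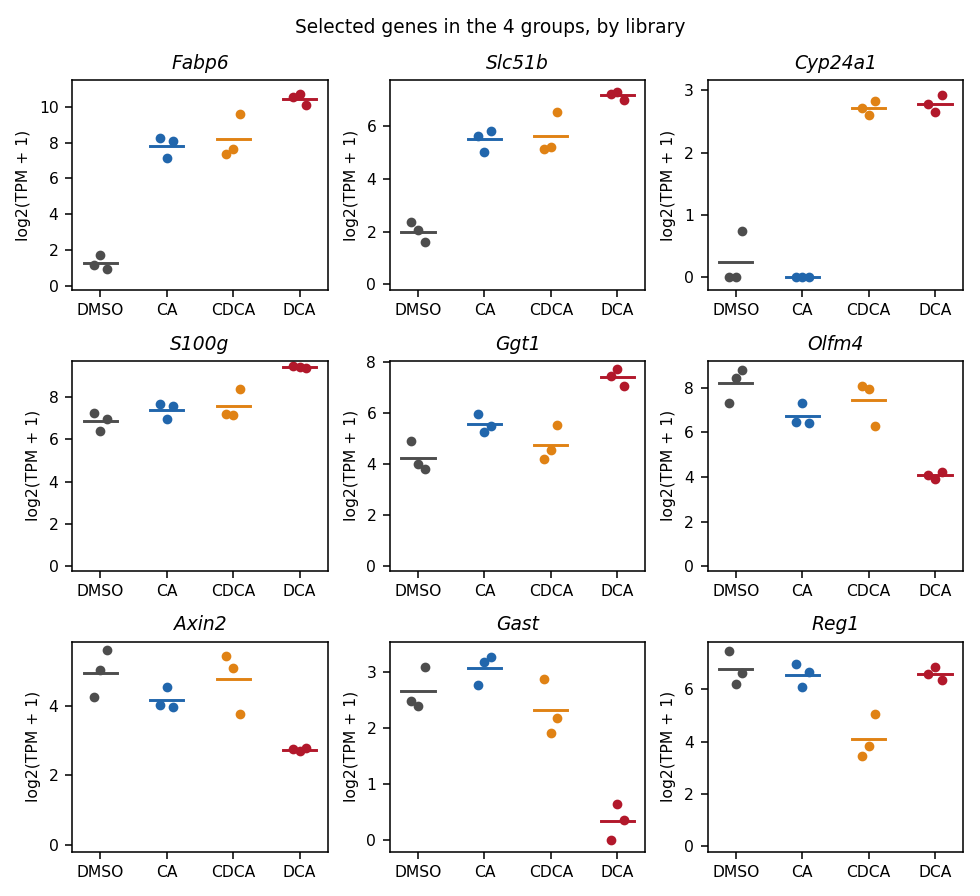
Log2(TPM + 1) of 9 genes in each library of the 4 groups, with a line at each group mean. DCA stands apart from the other 3 groups for Olfm4, Gast and Ggt1, lies with CDCA for Cyp24a1, and lies with DMSO and CA for Reg1.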

How the data were processed

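RNA from 12 organoid libraries was analysed, 3 for each of DCA, CA, CDCA and DMSO. The deposited values are TPM for each gene, and no counts were used here. The submitters' processing notes name Salmon 1.8.0 and GRCm39, and the sources used here do not give further steps. No pair of libraries held identical values. The analysis used log2(TPM + 1) and kept rows that reached 1 TPM in 3 or more libraries. They were fitted with limma 3.58.1 in R 4.3.3 over all 12 libraries, with 4 group means, a mean-variance trend and robust moderation. Adjusted p-values are Benjamini-Hochberg over all 11952 genes, called at 0.05. Shares of TPM were compared by exact two-sided permutation tests. The fit was tested on simulated data.

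The members and the gene lists were chosen with earlier results of these data known. Named genes are the 15 largest changes in each direction without overlap between libraries (average log2 value of at least 1, predicted genes and pseudogenes left out), up to 6 members of each list with the smallest p in each direction, members that moved against their list, and defining members. Between acids, the 6 largest in each direction and the genes named against DMSO were considered. A few of these are described here by list counts only.

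Alternatives were a pseudocount of 0.1, no filter, median-ratio scaling, a block for the replicate number, fitting the 6 libraries compared alone, limma without trend and robust moderation, and leaving out each library in turn. The rescaling without mitochondrial and rRNA rows, and the promoter letters GGTGAATNACC and AGGTCA, were added after seeing the data. Same-numbered DCA and DMSO libraries did not deviate together (correlations of 0.0115, -0.0561 and -0.00413), so the numbers were not taken to pair them. Promoters came from a RefSeq table on GRCm38.p6 and covered 9465 of the tested genes. Some members of the lists are not reported here by name.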

Additional observations from a re-analysis of the deposited data

How the results depend on the processing

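The 30 genes selected as the largest rises and the largest falls against DMSO, under the criteria given above, kept their calls under all 13 alternatives. They were picked from these same data for large changes without overlap between libraries. Their kept calls therefore do not show how stable the calls of other genes are. Counts of higher and lower genes were within 1.5 times the reported ones except for 4116 lower genes after mitochondrial and rRNA rows were left out. With a pseudocount of 0.1, 1073 genes passed by at least 1 log2 unit in place of 686. With the replicate number as a block, 2125 genes were higher and 2009 lower, and 4084 of 4545 calls were kept with their direction. Whether the replicate numbers pair the libraries is not labelled, and the reason for the lower counts was not tested. Without mitochondrial and rRNA rows, the lower members numbered 4 for BMP, 26 for ribosome biogenesis, 0 for mitochondrially encoded genes (which were left out), 14 for heat shock, 11 for p53 targets and 11 for junctions. The higher members numbered 1 for ribosomal proteins, 6 for identity factors, 16 for nuclear oxidative phosphorylation, 4 for the integrated stress response and 5 for apoptosis, and 2725 genes differed between DCA and CA. The ribosomal proteins that were higher numbered 13 with median-ratio scaling, 3 in the fit of 6 libraries and 1 without trend and robust moderation. The mitochondrially encoded genes that were lower numbered 5 with median-ratio scaling, and 3401 genes differed between DCA and CA in the fit of 6 libraries. The cause of these shifts was not tested. Leaving out each library in turn gave 2 to 12 higher ribosomal proteins, 6 to 10 lower mitochondrially encoded genes, 4 to 9 higher apoptosis genes, 0 to 1 lower BMP genes, 6 to 11 higher identity factors, 9 to 21 lower ribosome biogenesis genes, 572 to 1107 genes between DCA and CA, and 2022 to 3943 between DCA and CDCA. Depth is unknown, so counting error could not be separated from the spread between libraries.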
